A study of Arabidopsis thaliana with 2 samples.

Results

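The 26S proteasome is the protease that degrades ubiquitin-tagged proteins, and in Arabidopsis thaliana most of its subunits are encoded by pairs of paralogous genes. The 53 genes described here were chosen from a list of locus tags, not by any measured value, out of 38028 annotated nuclear and plastid genes. Earlier results of these data were known when the list was chosen. They comprise 13 genes for alpha and 11 genes for beta subunits of the 20S core particle, and 11 genes for RPT and 18 genes for RPN subunits of the 19S regulatory particle. Together they encode 31 subunits, of which 22 have 2 genes and 9 have 1 gene. Genes without a symbol in RefSeq are called here by their locus tags.

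In the core particle, rings of alpha subunits guard the entrance to a chamber formed by rings of beta subunits, and the products of the PBA, PBB and PBE genes carry the proteolytic sites. The RPT subunits form a ring of ATPases that unfolds substrates and feeds them into the core, whereas the RPN subunits bind ubiquitin chains, cleave them off and scaffold the regulatory particle. The particle holds its subunits in fixed proportions, and in Arabidopsis the transcription factors NAC053 and NAC078 raise the expression of the subunit genes when proteasome activity is limiting.

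Inflorescences with floral buds that had not yet opened were harvested from untreated wild-type plants of Col-0, the standard laboratory accession, as 2 biological replicates. The age of the plants is not given in the sources used here. Each replicate gave 1 library of PacBio full-length non-chimeric reads, each of which is the consensus sequence of a cDNA molecule with both primers and a poly(A) tail. There was 1 condition, so genes, paralogues and the 2 libraries were compared, not treatments.

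Replicate 1 held 256255 reads assigned to genes and replicate 2 held 243723, so that 1 read is worth 3.90 and 4.10 RPM, that is, reads scaled to 1000000 gene-assigned reads. All 8 floral organ identity genes and both tapetum genes used to check the labelled tissue had reads in both libraries. Levels were not divided by transcript length because each read represents a whole cDNA molecule. The median aligned length of reads on all genes was 1162 nt in replicate 1 and 1286 nt in replicate 2. Intervals given for single libraries are 95% Wilson intervals and cover counting error only.

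The subunit genes took 1606.83 reads in replicate 1 and 1414.83 reads in replicate 2. This is 0.627% (interval 0.597 to 0.658%) and 0.581% (0.551 to 0.612%) of the gene-assigned reads, and the intervals overlap. Reads were found for 51 of the 53 genes, and each of these 51 had at least 10 reads over both libraries. Their mean levels ranged from 24.0 to 337 RPM. Their median was 56 reads over both libraries, against 9 reads over all 21104 genes with reads. In whole buds, a low level in all cells cannot be told apart from a high level in few cells.

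**Figure D1:**
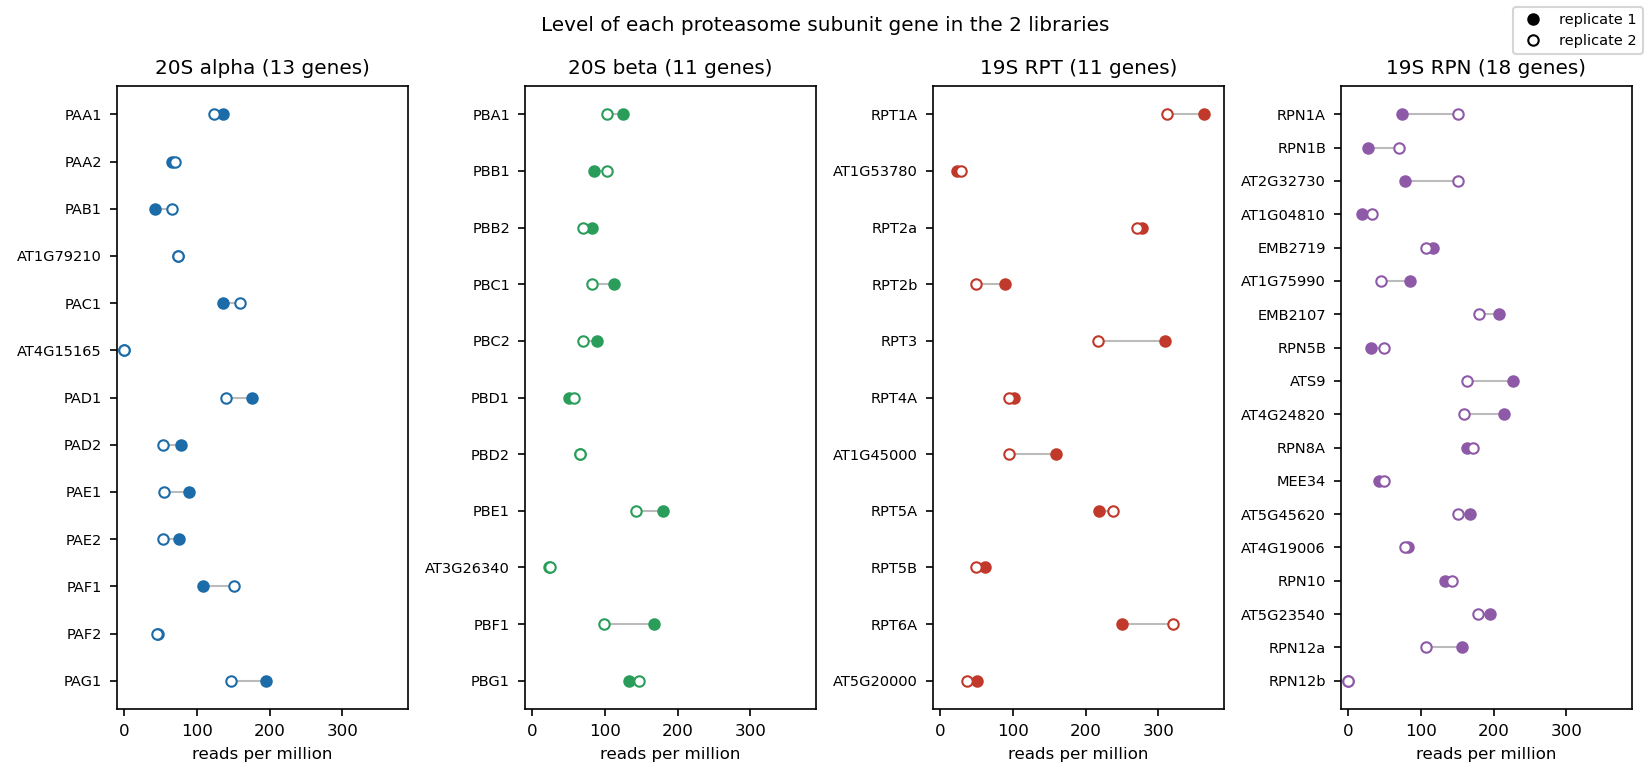
Level of each of the 53 subunit genes in RPM (x axis), in 4 panels by class, with filled circles for replicate 1, open circles for replicate 2 and a line joining both. RPT1A lies farthest to the right with 363 and 312 RPM, and AT4G15165 and RPN12b lie at 0.

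When the reads of paralogues were added, the subunits were close to each other in level. The SD of log2(RPM + 1) over the 31 subunits was 0.52 in replicate 1 and 0.48 in replicate 2. Over the 10002 genes with at least 10 reads, which were not summed into families, it was 1.33 and 1.26. RPT1 was the highest subunit and PBA the lowest, with 3.20-fold between their means, and 30 of 31 subunits lay within 2-fold of the median of 177 RPM. Subunits with 1 gene had a median of 171 RPM (range 114 to 264) and those with 2 genes had a median of 181 RPM (range 120 to 363), so both kinds overlapped over most of their range.

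Within the core particle, alpha subunits had on average 175 RPM in replicate 1 and 163 RPM in replicate 2 (169 ± 9.03, SD, n = 2). PAD was the highest with 65 and 47 reads (254 and 193 RPM), and PAB was the lowest with 30 and 34 reads (117 and 140 RPM). The libraries of these 2 subunits did not overlap. Beta subunits had on average 159 and 138 RPM (149 ± 15.3, SD, n = 2). PBE, the chymotrypsin-like subunit, was the highest with 52 and 41 reads (203 and 168 RPM), and PBA, the caspase-like subunit, was the lowest with 32 and 25 reads (125 and 103 RPM). Again the 2 extremes did not overlap, although they were chosen as the extremes.

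The RPT subunits stood above the other classes. They had on average 318 RPM in replicate 1 and 285 RPM in replicate 2 (301 ± 22.9, SD, n = 2). This was 1.78-fold ± 0.0405 the mean of the alpha subunits, 2.03-fold ± 0.0553 that of the beta subunits and 1.65-fold ± 0.109 that of the RPN subunits (SD, n = 2). Both RPT values lay above both values of each other class. RPT1 had 99 and 83 reads (386 and 341 RPM), and RPT4, the lowest of the ring, had 67 and 46 reads (261 and 189 RPM). In replicate 1 no subunit outside the RPT class exceeded RPT4, whereas 7 did in replicate 2. With only cap-labelled reads, which carry the untemplated G of a capped RNA, the RPT mean was 187 RPM against 90.5 RPM for alpha, 86.2 RPM for beta and 106 RPM for RPN subunits. The median longest annotated transcript was 1775 nt for RPT genes, 1231 nt for alpha, 1252 nt for beta and 1813 nt for RPN genes with reads. The part of transcript length in these differences was not tested, and no test between classes was made on 2 libraries.

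RPN subunits had on average 184 RPM in replicate 1 and 181 RPM in replicate 2 (182 ± 1.89, SD, n = 2). RPN9, a lid subunit, was the highest with 64 and 56 reads (250 and 230 RPM), and RPN12, which also belongs to the lid, was the lowest by mean with 40 and 26 reads (156 and 107 RPM). The ubiquitin receptor RPN10 had 34 and 35 reads (133 and 144 RPM). AT5G23540, the gene for the deubiquitinase RPN11, had 50 and 43.5 reads (195 and 178 RPM). Thus the receptor lay below the deubiquitinase in both libraries.

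The order of neighbouring subunits was not resolved at this depth. With all 31 placed by their mean, only 2 of the 30 steps between neighbours exceeded the spread between replicates, those from RPT6 to RPT5 and from RPN8 to PAA. That spread rests on 2 values and leaves out counting error, so these steps are not resolved either. RPT6 had 77 and 87 reads against 72 and 70 for RPT5, and RPN8 had 53 and 54 against 52 and 47 for PAA. RPT3, the only RPT subunit with a single gene, had 79.33 and 53 reads (310 and 217 RPM). The remaining single genes were PAG1, PBA1, PBF1, PBG1, ATS9 for RPN6 and AT4G24820 for RPN7, with means from 114 to 195 RPM.

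No subunit gene differed between the libraries after adjustment. Each gene's reads were tested against all other gene-assigned reads with Fisher's exact test (two-sided, Benjamini-Hochberg over all genes tested), which compares the libraries and not conditions. None of the 51 tested members passed an adjusted p of 0.05 (0 of 51, lowest adjusted p 0.237), against 128 of 10010 genes (1.28%). At an unadjusted p under 0.05 there were 5 of 51 members, against 1061 of all genes tested (10.6%). By neither count did the members stand out from all genes.

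Of the 5 members under the unadjusted threshold, a number near the share over all genes, 3 were higher in replicate 2. These 3 encode RPN1 and RPN2, the large scaffold subunits of the regulatory particle. RPN1A had 19 reads in replicate 1 and 37 in replicate 2, and its paralogue RPN1B had 7 and 17. AT2G32730, an RPN2 gene, had 20 and 37 reads, while its paralogue AT1G04810 had 5 and 8 and did not pass the unadjusted threshold. The 4 genes together were 2.04-fold higher in replicate 2 by RPM, and the other 49 members were at 0.889-fold. The 2 genes that were lower in replicate 2 were PBF1, with 43 and 24 reads, and AT1G45000, an RPT4 gene, with 41 and 23 reads.

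Over all genes, the ratio between the libraries moved with transcript length. Of all genes with at least 10 reads, the 857 with an annotated transcript of 3000 nt or more were 1.80-fold higher in replicate 2 when their reads were summed, and the 2445 genes from 1000 to 1500 nt were at 0.912-fold. From 2000 to 3000 nt all genes were at 1.14-fold, whereas the 3 members of that class were at 0.937-fold, with 196.33 and 175 reads. Reads of the RPN1 and RPN2 genes were fragments, with an exon chain that covers only part of an annotated one, in 49.0% of cases in replicate 1 and 20.2% in replicate 2. Their share of cap-labelled reads was 25.5% and 44.4%. The same shares over all genes of 3000 nt or more were 52.9% and 23.4% for fragments and 31.1% and 48.9% for cap labels. In the other members, fragments made up 11.1% and 7.70%. RPN1 with 101 and 222 RPM and RPN2 with 97.6 and 185 RPM had the widest spread between replicates for their level among the 31 subunits. AT1G53780, the only other member with an annotated transcript of 3000 nt or more (3515 nt), had 6 and 7 reads and was 1.23-fold higher in replicate 2. The part of length in each gene's difference was not tested.

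**Figure D2:**
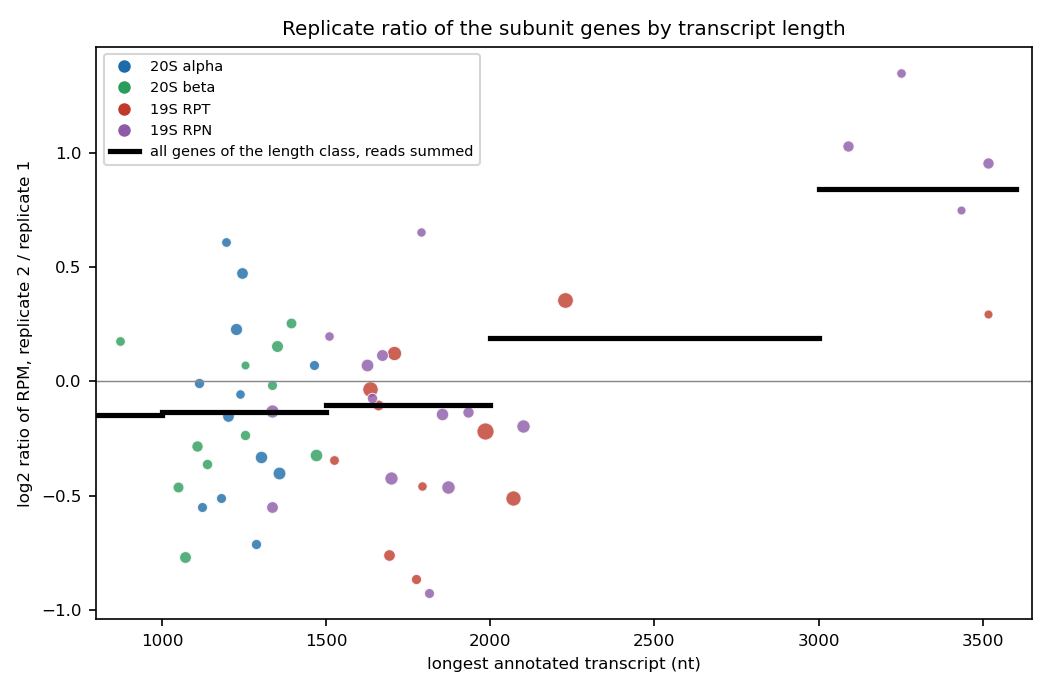
The log2 ratio of RPM, replicate 2 over replicate 1 (y axis), for each subunit gene with reads, against the length of its longest annotated transcript in nt (x axis), with colour for the class and a larger marker for more reads. Black bars give the ratio of all genes with at least 10 reads in 5 length classes. The bar of the longest class is at 1.80-fold, and the 4 RPN1 and RPN2 genes at the upper right lie on both sides of it. They run from 1.68-fold for AT1G04810 to 2.55-fold for RPN1B. AT1G53780, the other member of that class, lies lower, at 1.23-fold.

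Paralogues divided the reads of their subunit unequally in many pairs. For all 44 genes in pairs the member with the most similar coding sequence was the listed partner. Identity of the paired coding sequences at aligned positions was 80.3 to 94.4%, with a median of 86.8%, and counts below a whole read, which arise when a read is split over several alignments, made up 0.83 reads of the members in each library. A gene held at least 75% of its pair's reads in both replicates in 10 of 22 pairs. These were 4 of 5 RPT pairs and 4 of 7 RPN pairs, 1 of 6 alpha pairs and 1 of 4 beta pairs, and a difference between classes was not tested. By the interval of each library, 14 pairs excluded an even division in both libraries, 2 in 1 library and 6 in neither.

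**Figure D3:**
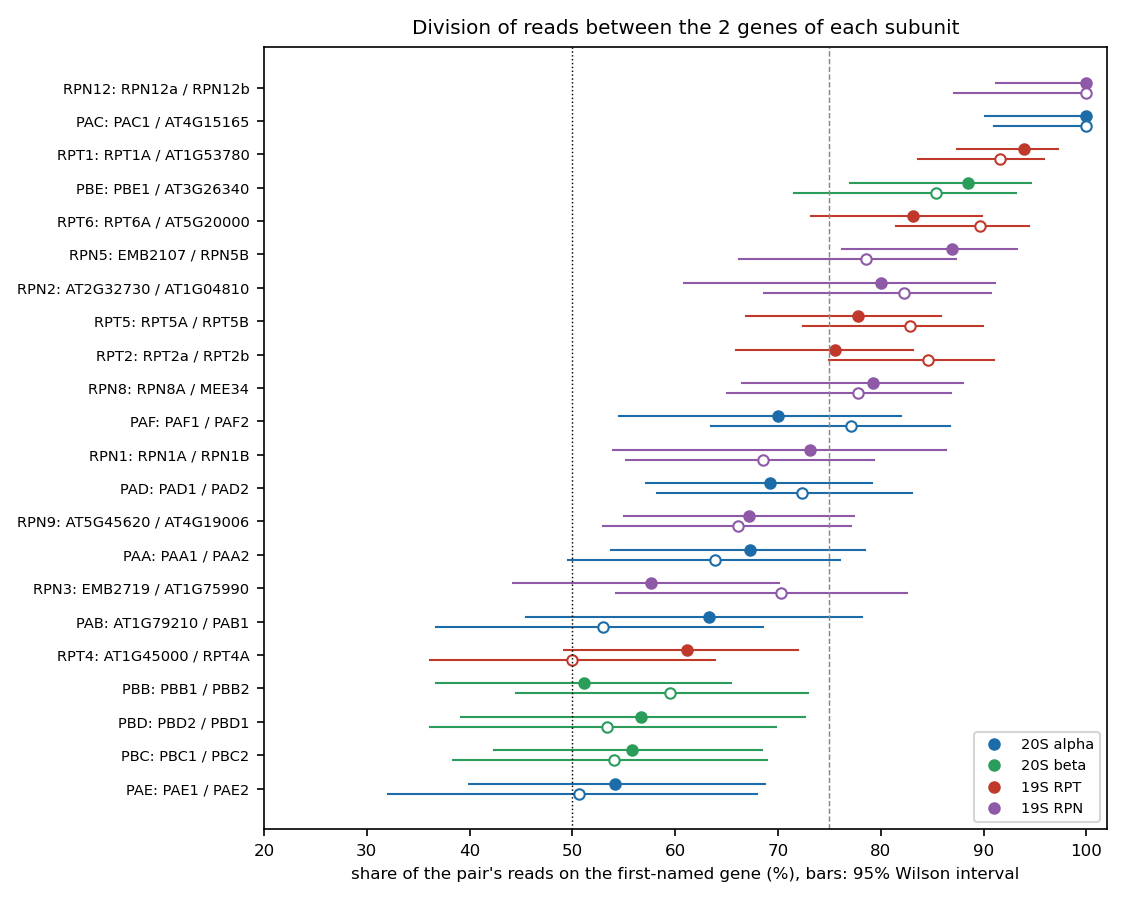
Share of each pair's reads on the first-named gene in % (x axis) for the 22 pairs, sorted by mean, with filled circles for replicate 1, open circles for replicate 2 and bars for 95% Wilson intervals. The dotted and dashed lines mark 50% and 75%, and the pairs run from PAE at the bottom, with 54.1% and 50.6%, to PAC and RPN12 at the top, where the second gene had no reads.

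Among the alpha pairs, only PAC was read from a single gene. PAC1 had 35 and 39 reads, and AT4G15165 had 0 in both libraries, which allows a level of up to 11.7 RPM in replicate 1 and 12.3 RPM in replicate 2. The coding sequence of AT4G15165 is 627 nt long, and that of PAC1 is 753 nt. PAA1 had 35 and 30 reads against 17 and 17 for PAA2 (67.3% and 63.8%), and the interval included 50% in replicate 2. PAD1 had 45 and 34 reads against 20 and 13 for PAD2 (69.2% and 72.3%), and PAF1 had 28 and 37 against 12 and 11 for PAF2 (70.0% and 77.1%). These pairs leaned to 1 gene, whereas PAB and PAE did not do so beyond counting error. AT1G79210 had 19 and 18 reads against 11 and 16 for PAB1, and PAE1 had 23 and 13.33 against 19.5 and 13 for PAE2.

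Of the beta pairs, 3 were shared evenly within counting error. PBB1, a gene for the trypsin-like subunit, had 22 and 25 reads against 21 and 17 for PBB2 (51.2% and 59.5%), and with matching exon chains only its share was 46% ± 7.64 (SD, n = 2), below 50% on average. PBC1 had 29 and 20 reads against 23 and 17 for PBC2 (55.8% and 54.1%), and PBD2 had 17 and 16 against 13 and 14 for PBD1 (56.7% and 53.3%). The chymotrypsin-like subunit differed from these, since PBE1 had 46 and 35 reads and AT3G26340 had 6 and 6 (88.5% and 85.4%).

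In the ATPase ring, 1 gene prevailed in each pair but RPT4. RPT1A had 93 and 76 reads against 6 and 7 for AT1G53780 (93.9% and 91.6%). RPT2a had 71 and 66 against 23 and 12 for RPT2b (75.5% and 84.6%), and RPT5A had 56 and 58 against 16 and 12 for RPT5B (77.8% and 82.9%). RPT6A had 64 and 78 reads against 13 and 9 for AT5G20000 (83.1% and 89.7%). The RPT6 genes had the most similar coding sequences of all pairs, with 94.4% identity, and lie 1317 nt apart on the same strand of chromosome 5 with 0 protein-coding genes between them. The RPT1 genes lie 5488 nt apart on the same strand of chromosome 1 with 2 protein-coding genes between them. In the RPT4 pair, AT1G45000 had 41 and 23 reads against 26 and 23 for RPT4A (61.2% and 50%), and both intervals included 50%.

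Among the RPN pairs, RPN12 was read from RPN12a alone, which had 40 and 26 reads against 0 and 0 for RPN12b. The coding sequence of RPN12b is 702 nt long and that of RPN12a 804 nt. AT2G32730 held 80% and 82.2% of the RPN2 reads. EMB2107 had 53 and 44 reads against 8 and 12 for RPN5B in the RPN5 pair (86.9% and 78.6%), and RPN8A had 42 and 42 against 11 and 12 for MEE34 in the RPN8 pair (79.2% and 77.8%). RPN5 is a lid subunit, and RPN8 is the partner of the deubiquitinase RPN11. The other 3 pairs were less unequal. RPN1A held 73.1% and 68.5% of the RPN1 reads, and AT5G45620 had 43 and 37 reads against 21 and 19 for AT4G19006 in the RPN9 pair (67.2% and 66.1%). In the RPN3 pair, EMB2719 had 30 and 26 reads against 22 and 11 for AT1G75990 (57.7% and 70.3%), and the interval included 50% in replicate 1.

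The division of a pair was not found to differ between the libraries. In Fisher's exact test of the 2 genes' reads (two-sided), 0 of 22 pairs passed the adjusted threshold and 0 had an unadjusted p under 0.05, with a lowest p of 0.183 for RPT2. Gene structure was largely shared within pairs. The most-read chains had the same number of introns in 18 of 19 pairs with a matching chain in both genes, the exception being RPN3 with 8 introns in EMB2719 and 6 in AT1G75990. Of 132 internal exons in the more abundant genes, 123 had a counterpart of the same length.

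The exon chains of the subunit genes were uniform. Reads with exactly the introns of an annotated transcript made up 82.9% of member reads in replicate 1 and 85.6% in replicate 2 (84.3% ± 1.94, SD, n = 2), against 79.97% ± 1.33 over all genes. Unannotated chains made up 1.31% and 1.34% of member reads (1.32% ± 0.0255), against 5.15% ± 0.471 over all genes. RefSeq lists several chains for 24 of the members, 61 chains in all, yet a second annotated chain was read in only 2 of these 24. Among all genes with at least 10 reads and several annotated chains, this was the case in 2169 of 4733 (45.8%). The members were PAE1, whose second chain had 3 reads in replicate 1 and 0 in replicate 2, and RPN5B, with 0 and 1. The most-read chain of each gene held 99.8% of the 2543.33 matching reads of the members and 97.5% over all genes.

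Unannotated chains were rare and mostly single reads. There were 33 of them in 23 members, with 40 reads in all, and 28 rested on 1 read. In 18 chains with 24 reads the sole difference was the retention of introns, and 12 chains with 13 reads held an intron that is not annotated. Only 4 chains were read in both libraries, and each retained 1 intron. In RPT3 this was intron 4 of 125 nt, in RPT5A intron 7 of 94 nt and in AT4G24820 intron 1 of 98 nt, each with 1 read in replicate 1 and 1 in replicate 2. The 6 reads of these 3 chains all carried a cap label and a 3′ label. The chain of AT1G53780 had 1 and 3 reads. No member had a second chain with at least 5 reads and 10% of the reads of its gene in both replicates.

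AT1G53780, the paralogue of RPT1A, was the sole member with reads of which none matched an annotated chain. The gene lies at chr1:20073989-20079022 on the minus strand and has 4 annotated chains, and its 13 reads comprised 9 with unannotated chains and 4 fragments. Its introns differ between the models at an acceptor where 2 AG dinucleotides lie 3 nt apart, which ends either a 104-nt or a 101-nt intron. The sequence around it, at chr1:20076193-20076222 of TAIR10.1 on the minus strand, is shown because the reads chose between these sites or neither, with both AG acceptors in capitals.
AT1G53780 acceptors: aaatcctcattccttAGcAGgagccttact
Of the 9 reads across this intron, 6 retained it, 3 in replicate 1 and 3 in replicate 2. The other 3, all from replicate 2, used the 104-nt form, which is in 1 of the models. None used the 101-nt form (0 of 9 reads), which is in 3 of the models. Farther upstream in the transcript, where 2 annotated introns share a donor, 5 of 6 reads had the 334-nt intron and 1 had the 91-nt intron. Over the gene, 5 reads started 13 to 28 nt inside the annotated gene start, and 3 of these were cap-labelled. The retained form was thus read in both libraries, and the spliced form rests on 1 library.

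Labels at the 5′ end placed the starts of most members. Cap labels were found on 57.4% of member reads in replicate 1 and 59.5% in replicate 2 (58.4% ± 1.51, SD, n = 2), against 57.5% ± 0.894 over all genes. In the 46 members with at least 10 cap-labelled reads, the most-used start lay a median of 60.5 nt inside the nearest annotated start, with a range from -78 nt for ATS9, where the negative sign marks a start upstream of the nearest annotated transcript start, to 288 nt for PBG1. It lay within 100 nt of it in 36 members. Starts within 50 nt of the most-used one took a median of 96.6% of a gene's cap-labelled reads, with a lowest value of 64.4% in AT5G23540.

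How sharply transcription began varied among the members. In AT4G19006, 24 of 32 cap-labelled reads started at the same base, and ATS9 had 45 of 66 and RPT5B 18 of 23 at theirs. PBF1 was broad, with at most 5 of 39 cap-labelled reads at a base and 19 positions in use within its main cluster of 36 reads. A second cluster of starts, with at least 5 reads and 20% of the cap-labelled reads, was found in 6 members. In RPT3 it lay 68 nt upstream of the main start and held 13 reads in each replicate, or 30.2% of 86. In AT5G23540 it lay 85 nt upstream and held 9 and 6 reads, or 33.3% of 45. Both lay closer to the annotated start than the main cluster did. The second clusters of PAD2 (3 and 2 reads), PAG1 (6 and 4 reads) and PBA1 (4 and 3 reads) were also read in both libraries. That of PBB1 had 0 reads in replicate 1 and 5 in replicate 2, so it rests on 1 library.

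**Figure D4:**
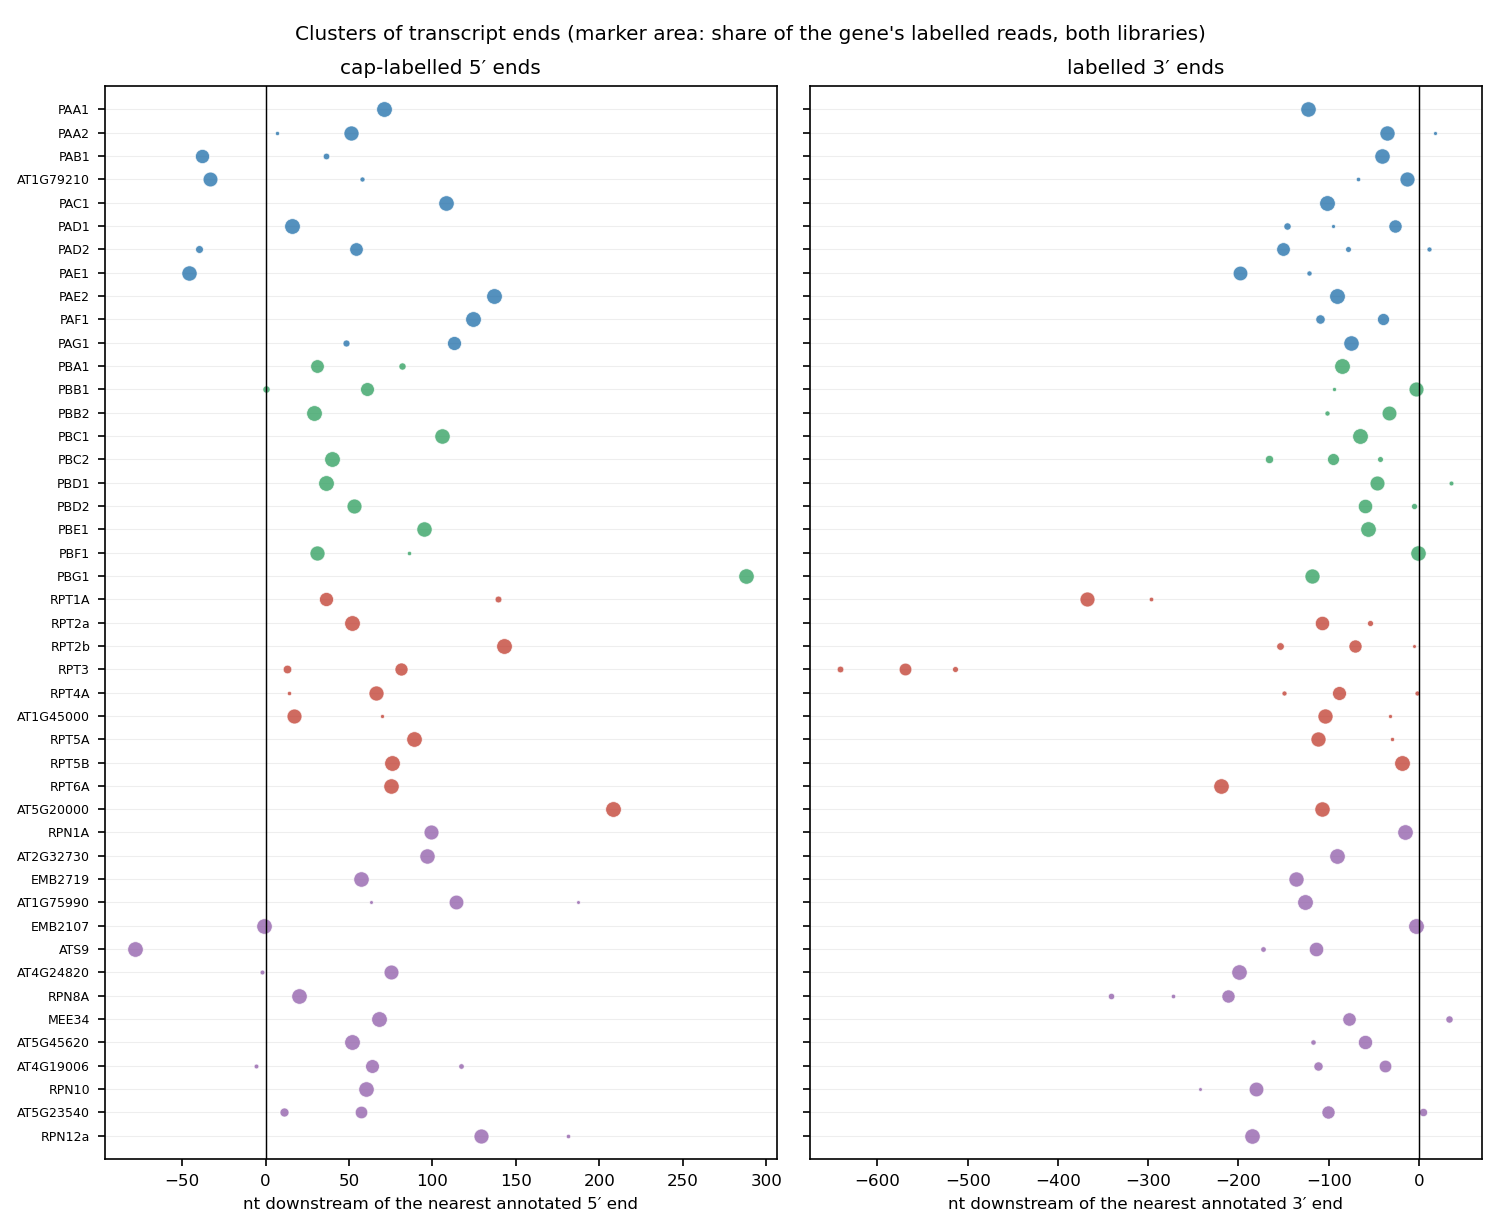
Clusters of cap-labelled 5′ ends (left) and labelled 3′ ends (right) by distance in nt downstream of the nearest annotated end (x axis) for the 45 members with at least 10 labelled ends of both kinds, coloured by class, with marker area for the cluster's share of the gene's labelled reads and clusters under 5% not drawn. Most starts lie to the right of 0 and most 3′ ends to the left of 0, inside the annotated gene, with PBG1 and AT5G20000 farthest in at the 5′ end and RPT3 at the 3′ end.

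The bases around the starts of paralogues were compared. In windows of 30 bases aligned at the most-used start without gaps, the PBC genes were the same at 26 of 30 bases and the PBB genes at 18, while 17 other pairs with a start in both genes had 4 to 14. The lowest count was that of the RPN8 pair, whose windows nevertheless share the longest run of all pairs at shifted positions, 13 nt against 11 nt in PBC. The PBC windows, at chr1:7626273-7626302 and chr1:29096226-29096255 of TAIR10.1 on the plus strand, are shown because both genes started at the same A, which is in capitals.
PBC1 start: attttcctccaagccAccgtcgactttact
PBC2 start: agtttcgtccaagccAtcgtcgactttaat
PBC1 had 8 of 28 cap-labelled reads at this base and PBC2 had 4 of 26.

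The starts of the members were compared with those of all 10499 genes with a most-used start and at least 5 cap-labelled reads. Of 50 members with such a start, 48 (96%) had a pyrimidine before a purine there, against 90.7% of all genes. The letters TATAAA or TATATA began 20 to 45 nt upstream on the transcribed strand in 1 member, AT5G20000 (2%), against 22.8% of all genes. AT5G20000 also had a sharp start, with 8 of 10 reads at 1 base. The sharp starts of AT4G19006, ATS9 and RPT5B did not have these letters, and a link between letters and sharpness was not tested. These are descriptions of letters and not of bound factors.

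Many member promoters held the letters TGGGC, the core of a motif that TCP transcription factors are known to bind in plants. On either strand, between 250 nt before and 50 nt after the annotated start, 33 of 53 members held it (62.3%), against 25.95% of 27444 protein-coding genes. Around the most-used cap-labelled start, in windows of the same length, these were 31 of 50 members (62%) and 33.7% of 10499 genes. The letters also lie within TGGGCC and TGGGCT, and a copy counted for TGGGC may count for these as well. By class, 8 of 12 alpha, 9 of 11 beta, 5 of 10 RPT and 9 of 17 RPN promoters held it, and these shares were not tested against each other. As a comparison, AAACCCTA, the letters of the telo box, were in 5.66% of member and 6.26% of all windows around the annotated start, and in 2% and 10.6% of those around the cap-labelled start.

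Promoters with the letters often held several copies. At least 2 copies were found in 28 of the 31 members, with up to 5 in RPN1A and RPN1B, and the copy nearest to the start lay at a median of -74 nt from it. The nearest copies are shown for a gene of each class, including both genes of the PAE and RPN1 pairs, as examples of their spacing and surroundings. All are from TAIR10.1 and read on the strand of the gene, with the copy in capitals as TGGGC or as its reverse complement GCCCA.
PAC1 (chr3:7794217-7794246, minus): aaattacactttTGGGCctaatctgtaaag
PAE1 (chr1:20106057-20106086, minus): aggcccatgaaaGCCCAttataaaaaacgc
PAE2 (chr3:4764101-4764130, plus): ggcccattaacaGCCCAagtgttaatcaaa
PBE1 (chr1:4452221-4452250, plus): ttacagtttatgGCCCAtatttgtggtttg
RPT1A (chr1:20068516-20068545, minus): ctcgcttaaaaaGCCCAttttacacgtggg
RPN1A (chr2:8858954-8858983, plus): aagaggttgtaaTGGGCtgattgattctat
RPN1B (chr4:14072607-14072636, minus): attatgggctgaGCCCAcaatggaattctt
Relative to the start, the copy lay at -80 nt in PAC1 and PAE1, -48 nt in PAE2, -74 nt in PBE1, -69 nt in RPT1A, -95 nt in RPN1A and -98 nt in RPN1B. PAE1 and PAE2 each hold a second copy on the same strand within the printed bases, in lower case. RPN1B also holds a second copy there in lower case, in the opposite orientation. No copy was found in 19 members, including both genes of the PAA, PAB, RPT4, RPT6 and RPN3 pairs, and no match says only that these letters are not in the window.

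The 3′ ends of the members mostly lay inside the annotated ends. In the 49 members with at least 10 labelled 3′ ends, the most-used end lay at a median of -91 nt from the nearest annotated end, where negative values are upstream of it and thus inside the gene, and it was upstream in 48. RPT3 was the farthest at -570 nt. A second cluster by the same rule as for starts was found in 7 members. In PAF1 it lay 70 nt upstream of the main end with 13 and 10 of 64 reads, in PAD1 119 nt upstream with 12 and 5 of 78, and in AT4G19006 74 nt upstream with 7 and 7 of 40. In AT5G23540 it lay 105 nt downstream with 15 and 11 of 93.5 reads, so that this RPN11 gene had 2 start and 2 end clusters in both libraries. The others were PBC2 with 6 and 4 reads, MEE34 with 3 and 2 reads, and RPT2b with 7 and 1 reads, of which RPT2b rests largely on replicate 1.

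A 3′ label was found on 95.2% of member reads in replicate 1 and 94.8% in replicate 2 (95.02% ± 0.260, SD, n = 2), against 88.9% ± 0.409 over all genes. All reads were labelled in 20 members and over 90% in 40. The 5 members below 80% over both libraries were RPN5B (35.0%), PAA2 (47.1%), AT1G04810 (53.8%), AT1G75990 (69.7%) and PBD1 (77.8%), and they held 53 of the 150 unlabelled reads. Of these, AT1G75990 had 59.1% in replicate 1 and 90.9% in replicate 2, and PBD1 had 100% and 57.1%. Both were thus below 80% in 1 library only. In the making of the deposited files, labels at A-rich genomic sequence were removed because the oligo-d(T) primer can anneal there. Of the unlabelled reads, 38% ended before at least 12 A among the next 20 genomic bases, as did 1.11% of the labelled reads.

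**Figure D5:**
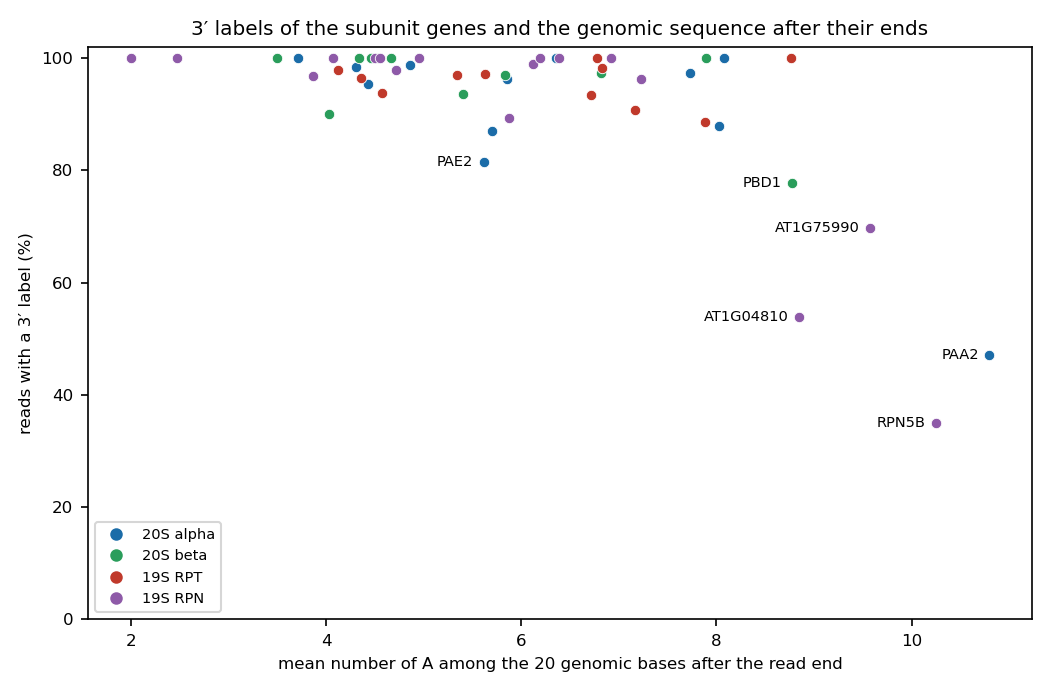
Share of reads with a 3′ label in % (y axis) against the mean number of A among the 20 genomic bases after the read ends (x axis), with a point for each of the 51 members with reads, coloured by class. Members at the upper left have few A after their ends and labels on nearly all reads, and the 5 members below 80% lie at the right with means over 8 A.

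The genomic bases after the ends are shown for both genes of the RPN5 and PAE pairs, which differ in their labels, and for AT1G75990 and PAA2, where fewer reads were labelled than in most members. In these windows of TAIR10.1, read on the strand of the gene, the first 10 bases end at the last aligned base of the read, and each A in the following 20 is in capitals.
RPN5B (chr5:25893796-25893825, minus): attataatgcAAAAAtAtAAtAAAttAAgA
EMB2107 (chr5:3089261-3089290, minus): gtttttggttAAAttgttAgAAAAtttAcA
AT1G75990 (chr1:28524502-28524531, minus): ttactttatgAAAAAAcAAAAtctcAAAct
PAA2 (chr2:2236246-2236275, plus): taaggttttgAAttttAAAAggcAAAAcAA
PAE2 (chr3:4766577-4766606, plus): atatctgtccAAAAgAAAAAAtcAgAActt
PAE1 (chr1:20103934-20103963, minus): ctttcctaccActtAcgttttgttActtgc
At the RPN5B site, which has 14 A, 12 reads ended and 0 were labelled, whereas at the EMB2107 site, with 10 A, all 18 reads were labelled. At the AT1G75990 site, with 13 A, 0 of 7 reads were labelled, and at the PAE2 site, also with 13 A, 0 of 5 were labelled. Over all its ends, PAE2 had labels on 81.5% of its 32.5 reads, 94.9% in replicate 1 and 61.5% in replicate 2. Its unlabelled reads thus rest largely on replicate 2, and its most-used labelled end lay 68 nt from the printed site. The PAE1 site has 3 A, and all 16 reads were labelled. The number of A alone did not fix the label, since all 9 reads at the PAA2 site, with 12 A, carried it. That site is the most-used end of PAA2, and its 18 unlabelled reads ended elsewhere. The most frequent end among them has 10 A, with 5 unlabelled and 2 labelled reads, and is not shown. Of the 18, 5 ended before at least 12 A.

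Other genes around the proteasome, from a separate list of 20, were all read. They include accessory subunits, assembly factors, ubiquitin shuttles and regulators, and had a median of 65.9 RPM against 97.9 RPM for the 53 members. Of the 18 with at least 10 reads, 0 passed the adjusted threshold between the libraries. CDC48, the segregase that extracts ubiquitinated proteins, had 139 and 160 reads (542 and 656 RPM). The ubiquitin shuttles RAD23D and RAD23C followed with 50 and 51 reads (195 and 209 RPM) and 39 and 30 reads (152 and 123 RPM). DSK2, another shuttle, had 24 and 25 reads, NAC2, the gene for NAC078, had 25 and 23, and DDI1 had 27 and 18. CDC48 thus lay above every subunit of the proteasome in both libraries, and NAC078, a regulator of the subunit genes, was near the median of the members. NAC053, named here after its values were seen, had 7 and 0 reads (27.3 and 0 RPM).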

How the data were processed

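Per the study's methods, the authors made consensus reads with at least 2 passes, required a poly(A) tail, aligned the reads with minimap2 to TAIR10 guided by its splice junctions, and converted them with Bookend, which removed 3′ labels at A-rich genomic sequence and masked exons with many errors. The deposited values are expected counts of reads per aligned structure, not normalized, and a read with several alignments is split. Here each structure was assigned to the RefSeq gene (TAIR10.1) with the most exonic overlap on its strand, mitochondrial reads left out, and scaled to RPM. A full match required both ends within 100 nt, and ends within 50 nt formed a cluster. Fisher's exact test used rounded counts of genes with at least 10 reads. Python 3.11.15, numpy 2.4.6, scipy 1.17.1 and Biopython 1.88 were used, and the scripts were tested on simulated data. Values were printed for both genes of each pair, the highest and lowest subunit of each class, genes with a second chain or end cluster, and the 6 most-read genes of the separate list. Other single genes were named for the contrast they show, after their values were seen. The members and lists were chosen with earlier results of these data known. Alternatives covered assignment, fractional counts, pseudocount, thresholds, end tolerance, read classes and each replicate left out.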

Additional observations from a re-analysis of the deposited data

How the results depend on the processing

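Of 48 alternative values for the main results, 40 stayed within the spread between replicates or within 1.5 times the main count, 8 moved and 0 reversed. The 40 include the percentages and the SD over the subunits with 1 replicate left out. These could not move by this rule, since with 2 replicates each value lies within 1 SD of their mean. The SD of log2(RPM + 1) over the subunits, 0.50 as the mean of both replicates, was 0.67 with cap-labelled reads only and 0.59 with matching exon chains only. Pairs with 1 main gene numbered 3 at a threshold of 90%, against 10 at 75%. Full matches, 20.6% of member reads with ends within 100 nt, were 2.25% within 50 nt and 56.2% within 200 nt. Unannotated chains in both replicates numbered 4, and 0 with at least 2 reads in each. With 1 replicate left out there were 15 to 20 chains in the other one, by construction, since 1 library then sufficed. That alternative was chosen after seeing the data. Of 66 alternative values for the shares of pairs, 6 moved, including that of PBB1, from 55.3% to 46% with matching exon chains only. No paired analysis was possible because there is 1 condition. The tests between the libraries cannot be run without either replicate. At 12 to 169 reads a gene, shares of pairs had wide intervals, and a chain with 1 read in each library is near the limit of what this depth can show. Whether the replicate spread is biological or technical cannot be told apart with 2 libraries.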

Other observations

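Reads on the strand opposite to the members numbered 11, at 8 of the 53 loci, with at most 2 at a locus. Of these, 0 had a cap label, 0 had a 3′ label and 0 were spliced.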
